A study of Mus musculus with 95 samples.

Results

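The Reg genes encode a family of small secreted proteins built around a C-type lectin fold. All 6 members named for description were found by symbol in the count table of islet libraries, Reg1, Reg2, Reg3a, Reg3b, Reg3g and Reg3d, among 20638 genes. All 6 also passed the filter on low counts, which kept the 15766 genes at a CPM of 1 or higher in no fewer than 10 libraries. CPM, the unit of level used throughout, is a gene's count scaled to the library's total after adjustment by the trimmed mean of M values. The adjustment factors ran from 0.460 to 1.29, so a CPM is not a share of the counts. They were described over 95 libraries, with their level read against Clps. Clps encodes colipase, a cofactor of pancreatic lipase made by acinar cells, and its transcript in an islet library marks exocrine tissue carried along with the islets.

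Reg proteins were first known from the pancreas, where acinar cells secrete Reg1 and Reg2 with the digestive enzymes. Reg3b, also called pancreatitis-associated protein, and Reg3g rise in the injured or inflamed pancreas and in the intestine, where they act on bacteria at the epithelial surface. Cytokines of the interleukin-6 and interleukin-22 families switch on several Reg genes through the transcription factor Stat3, and the exostosin-like protein Extl3 has been put forward as a receptor for Reg proteins.

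Islets of mice of the Diversity Outbred founder strains were profiled by poly(A) RNA-seq. The mice were kept on a high-fat, high-sugar diet, given as 45% fat for all libraries. The labels give no strain, sex, age or animal for a single library, so the libraries form 1 set, no groups were compared, and each library is called by the number at the start of its label. P-values therefore measure the spread between these libraries, which may be partly technical, and since libraries with nearby numbers were often alike they are likely too small.

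The 6 genes lie side by side on chromosome 6 of GRCm38, within 98.2 kb from 78370657 to 78468872, and the count table holds no other gene inside that span. In the order of the chromosome they are Reg3b (78370657 to 78373466, + strand), Reg3d (78375874 to 78378865, - strand), Reg3a (78380709 to 78383827, + strand), Reg2 (78395623 to 78408106, + strand), Reg1 (78422711 to 78428667, + strand) and Reg3g (78466269 to 78468872, - strand). GENCODE lists all 6 as protein coding. The longest coding sequences hold 495 bases for Reg1, 519 for Reg2, 522 for Reg3g and 525 each for Reg3a, Reg3b and Reg3d. Reg1 and Reg2 were the closest pair, with 82.6% of 495 aligned coding bases identical. Reg3b and Reg3g shared 76.4%, Reg3a and Reg3b 74.7%, and Reg3a and Reg3g 73.2%, whereas every other pair had 66.3% or less. Of the 31-base words in the transcripts of each gene, 5.70% for Reg1 and 7.65% for Reg2 also occur in any other annotated gene. The gene that shared the most words was Gm15912 for Reg1 and Gm48309 for Reg2. The share of words found in any other gene was 0.446% for Reg3b, 0.231% for Reg3g and 0 for Reg3a and Reg3d.

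The start regions of 4 members are printed from RefSeq (GRCm38.p6) for the comparisons that follow. Reg1 and Reg2 are closest in coding sequence but differed in how they followed Clps. Over the 95 libraries, Reg3b and Reg3g were the most alike in level once Clps was taken into account. That measure does not allow for the likeness of libraries with nearby numbers. Each runs 5′ to 3′ on the strand of its gene, from 250 bases before the RefSeq start site, which is position 0, to position 19. Capitals mark TATAAA, the TATA box, CACCTG, an E-box of the kind bound by the acinar factor Ptf1a, and TTCNNNGAA, the STAT motif, searched on both strands.
Reg1, chr6:78425733-78426002, + strand: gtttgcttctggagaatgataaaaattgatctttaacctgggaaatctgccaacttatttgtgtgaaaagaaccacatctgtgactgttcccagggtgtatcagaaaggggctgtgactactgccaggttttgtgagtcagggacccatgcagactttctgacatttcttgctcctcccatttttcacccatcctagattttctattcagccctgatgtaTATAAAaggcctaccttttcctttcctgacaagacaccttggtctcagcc
Reg2, chr6:78404905-78405174, + strand: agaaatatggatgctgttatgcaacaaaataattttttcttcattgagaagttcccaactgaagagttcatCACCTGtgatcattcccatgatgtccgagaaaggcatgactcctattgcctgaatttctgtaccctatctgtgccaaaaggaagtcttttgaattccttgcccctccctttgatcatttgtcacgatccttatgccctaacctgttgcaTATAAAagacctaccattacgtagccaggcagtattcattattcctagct
Reg3b, chr6:78370635-78370904, + strand: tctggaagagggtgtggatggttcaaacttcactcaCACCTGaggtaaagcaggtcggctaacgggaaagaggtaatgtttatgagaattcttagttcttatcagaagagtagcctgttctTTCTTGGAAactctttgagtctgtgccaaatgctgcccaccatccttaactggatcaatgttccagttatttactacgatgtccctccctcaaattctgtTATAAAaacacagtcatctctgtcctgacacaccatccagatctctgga
Reg3g, chr6:78468855-78469124, - strand: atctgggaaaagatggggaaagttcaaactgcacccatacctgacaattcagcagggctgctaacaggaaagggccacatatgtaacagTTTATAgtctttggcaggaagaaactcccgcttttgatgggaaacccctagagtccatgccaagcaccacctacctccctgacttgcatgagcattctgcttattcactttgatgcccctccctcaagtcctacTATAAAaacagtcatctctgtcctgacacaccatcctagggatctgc

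A TATAAA began at position -30 in Reg1 and Reg2, at -29 in Reg3b and at -27 in Reg3g, where a reverse copy also lay at -161. A reverse copy in Reg1 lay at 35, beyond the printed stretch. CACCTG began at -179 in Reg2 and at -214 in Reg3b. It was also found at -166 in Reg3a and at -224 and -187 in Reg3d, and these letters were absent from the window of Reg1 and of Reg3g. TTCNNNGAA was present in Reg3b, as TTCTTGGAA at -129, and in Reg3d, as TTCCCAGAA at -238. No stretch of bases was shared between these motifs. Among 32851 RefSeq promoters of 300 bases, 13.6% held TATAAA, 20.2% held CACCTG and 8.30% held TTCNNNGAA. The RefSeq start sites of Reg1 (78425983), Reg2 (78405155) and Reg3b (78370885) lie inside the spans given above, so other transcripts of these genes start farther upstream. A match is a description of the letters in the window and shows no binding.

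Library totals ran from 16411782 to 34357227 counts, with a median of 26552716. Hormone transcripts were abundant in every library: Ins2, which encodes insulin, was at 35048 CPM or more, Gcg, which encodes glucagon, at 2509 CPM or more, and Sst, which encodes somatostatin, at 545 CPM or more. The summed level of 18 acinar genes ran from 1769 to 697653 CPM, with a median of 46848 CPM, so every library held exocrine transcripts. Libraries 97, 99 and 100 stood apart by their leukocyte transcripts: the summed level of 8 macrophage genes was 2073, 1543 and 1609 CPM there, against a median of 75.7 CPM over all 95. The 9 libraries numbered 66 to 75 stood apart by the acinar chymotrypsin-like gene Ctrl, at 4.84 to 21.3 CPM, which stood between -9.11 and -5.76 log2 units from the level on its line against Clps. Intestinal markers could mark another source of Reg transcripts. Of 6 such genes 3 were in the table. Vil1, which encodes the brush border protein villin, had a median of 89.1 CPM and a highest level of 149 CPM, and Lgals4, which encodes a galectin, a median of 7.12 CPM and a highest level of 26.0 CPM. Muc2, which encodes an intestinal mucin, had a median of 0.0324 CPM and a highest level of 9.63 CPM in library 9.

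Reg1 was by far the most abundant member. Per kilobase of exon, median levels were 723 CPM for Reg1, 12.2 for Reg2, 10.4 for Reg3d, 4.39 for Reg3b, 0.940 for Reg3a and 0.352 for Reg3g. On this scale Reg1 was above Reg2 in 94 of 95 libraries and above the other members in all 95. The order of Reg2 and Reg3d was not stable, with Reg2 the higher in 60 libraries. Reg3d was above Reg3b in 72, Reg3b above Reg3a in 83, and Reg3a above Reg3g in 77, so neighbours in the order overlapped. Reg3b was above Reg3g in all 95.

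Each member ranged widely between libraries. Reg1, the protein once called lithostathine, was at 26.3 CPM in library 30, at a median of 654 CPM and at 14978 CPM in library 39. Reg2, its closest relative in sequence, ran from 0.795 CPM in library 25 through a median of 11.6 CPM to 3658 CPM in library 6. Reg3d, related to the islet neogenesis-associated protein, ran from 0.276 CPM in library 25 through 8.13 CPM to 161 CPM in library 39. These 3 genes were lowest in libraries with little exocrine transcript, Clps being at 56.5 CPM in library 25 and at 81.6 CPM in library 30. Reg3b was at 0.188 CPM in library 59, at a median of 5.02 CPM and at 1100 CPM in library 89. Reg3a had no counts in 3 libraries, a median of 0.775 CPM and a highest level of 177 CPM in library 89. Reg3g had no counts in 5 libraries, a median of 0.743 CPM and a highest level of 50.3 CPM in library 89. Library 89 thus held the highest level of all 3 of these genes.

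Between the 10th and 90th percentiles over libraries, levels spanned 8.23 log2 units for Reg2, 6.30 for Reg3a, 5.60 for Reg3d, 5.45 for Reg3b, 5.41 for Reg1 and 5.24 for Reg3g. The median span of all kept genes was 0.91 log2 units. Only 0.171% of kept genes spanned more than Reg2, and 2.21% spanned more than Reg3g, the member with the narrowest span. Clps itself spanned 5.39 log2 units.

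**Figure D1:**
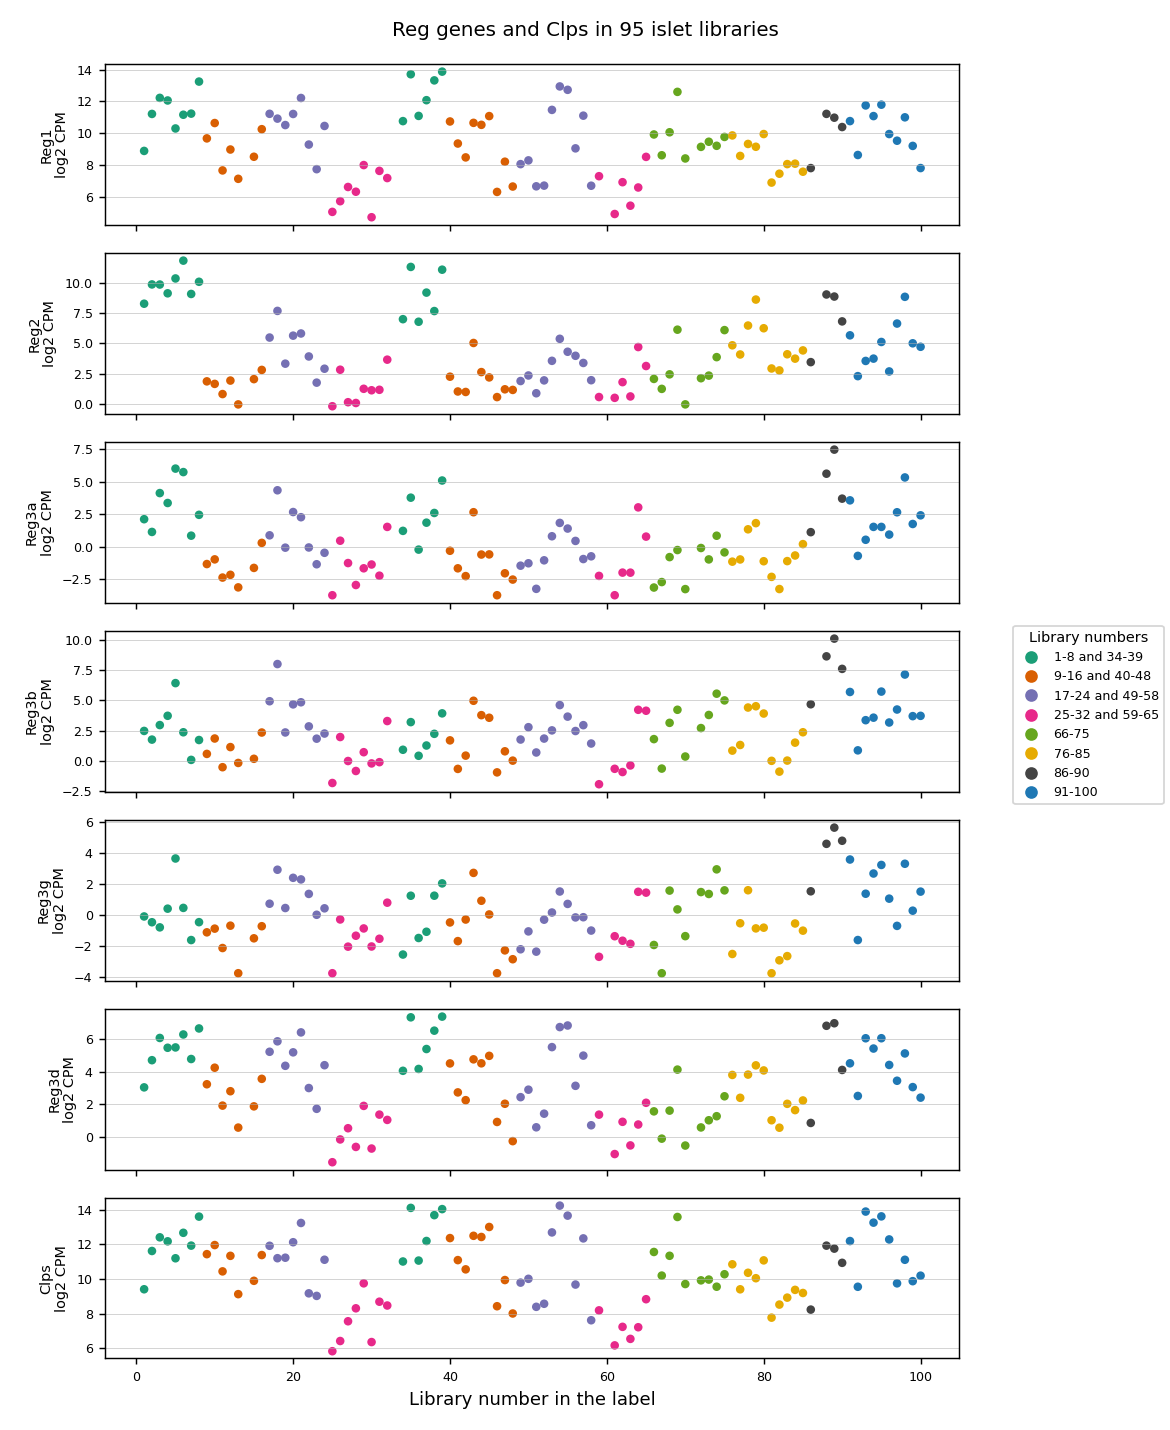
Level of each Reg gene and of Clps in 95 islet libraries, as log2 CPM with a prior count of 2 (y axis), by the number in the library's label (x axis), coloured by run of library numbers. Reg1 and Reg3d rise and fall with Clps, whereas Reg2 is high in libraries 1 to 8 and 34 to 39 and Reg3b, Reg3a and Reg3g are highest in library 89.

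Together the 6 genes made up 0.0887% of all counts in the median library. The lowest share was 0.00338% in library 30, with a Wilson 95% interval of 0.00316% to 0.00361%. The highest was 1.13% in library 39, and intervals cover counting error only. Reg1 gave a median of 95.1% of Reg counts, Reg2 2.16%, Reg3d 1.29%, Reg3b 0.594%, and Reg3a and Reg3g under 0.1% each. Reg1 led in 93 libraries. In the other two, Reg2 led, with 60.1% of Reg counts in library 6 and more counts than Reg1 in library 5, where Reg2 was at 1317 CPM and Reg1 at 1260 CPM. Reg3b reached 28.0% of Reg counts in library 89, in which Reg1 gave 51.3%.

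**Figure D2:**
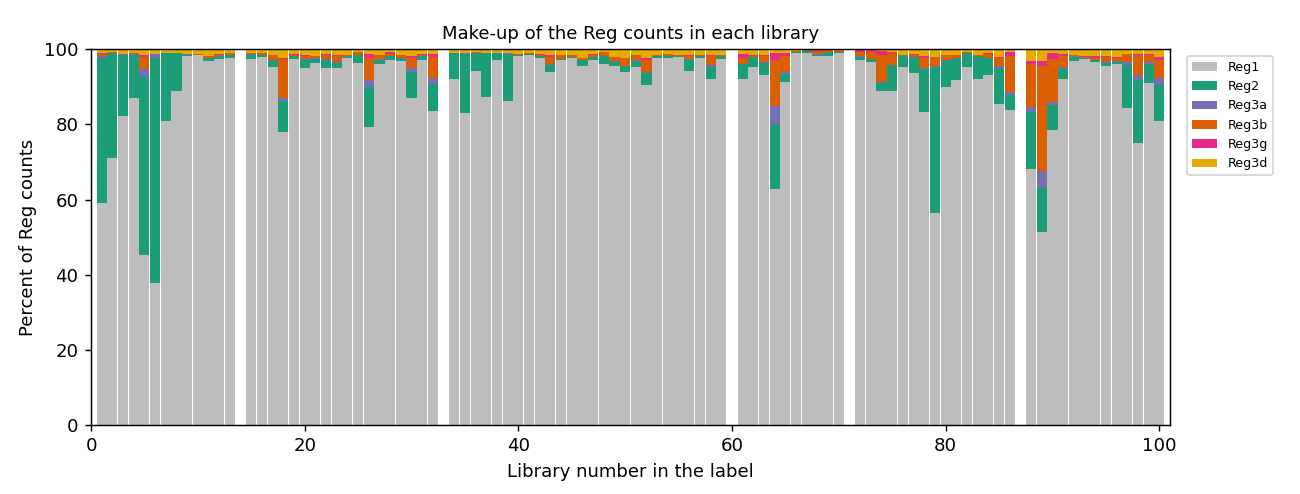
Percent of the counts of the 6 Reg genes (y axis) that came from each gene, as stacked bars, 1 bar for each library in the order of label numbers (x axis, gaps where no library has the number). Reg1 fills most of nearly every bar, Reg2 is the larger in library 6 at 60.1%, and Reg3b takes 28.0% in library 89.

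Every member was higher where Clps was higher. In edgeR's quasi-likelihood fits of each kept gene on log2 CPM of Clps, 6 of 6 members had a positive slope past an adjusted p of 0.05, against 14.7% of 15765 genes. A further 14.5% of genes had a negative slope past it. A slope of 1 means that a gene moves in proportion to Clps. Reg1 had a slope of 1.00 ± 0.0342 (SE, n = 95 libraries, edgeR adjusted p = 5.68e-47) and Reg3d one of 1.03 ± 0.0542 (edgeR adjusted p = 8.12e-32). The 18 acinar genes, digestive enzymes and their partners, all had positive slopes past the threshold with a median of 0.99, and the median over all genes was -0.00442. Fewer acinar cells and less RNA per acinar cell cannot be told apart in these bulk libraries. Reg2 had the steepest slope, 1.18, and a wider error of 0.148 (edgeR adjusted p = 1.61e-10). The slopes were 0.84 ± 0.172 for Reg3b (edgeR adjusted p = 6.20e-05), 0.79 ± 0.152 for Reg3a (1.65e-05) and 0.59 ± 0.131 for Reg3g (0.000205). The slope of Reg3g had a 95% interval of 0.33 to 0.85 and so lay below proportionality to Clps, while the intervals of the other 5 members included 1. With the runs of library numbers, set out in the account of runs, as a factor, the slopes were 0.60 ± 0.140 (SE) for Reg2, 0.50 ± 0.16 for Reg3a and 0.54 ± 0.165 for Reg3b. These were past the threshold but each more than 2 SE below 1, and Reg1 and Reg3d then had the steepest slopes, 0.94 and 0.95. Without libraries 86 to 90 that of Reg3b was 0.52.

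By ranks, Reg1 and Reg3d were the members closest to Clps. Spearman's rho with Clps was 0.941 for Reg1 and 0.890 for Reg3d, then 0.557 for Reg2, 0.551 for Reg3a, 0.497 for Reg3b and 0.496 for Reg3g. In two-sided permutation tests p was 1e-05, the smallest 100000 resamples can give, for the first 4 genes and 3e-05 for Reg3b and Reg3g, with adjusted p of 0.000202 and 0.000416. Positive and past the same threshold were 15.5% of all genes. Pearson's r was 0.953 for Reg1, 0.894 for Reg3d, 0.554 for Reg2, 0.519 for Reg3a, 0.476 for Reg3b and 0.478 for Reg3g, each with a permutation p of 1e-05. Without libraries 25 and 61, the farthest from the median of Clps, r was 0.948, 0.884, 0.530, 0.481, 0.436 and 0.452 in the same order of genes.

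Library numbers fall into 8 runs whose libraries had alike levels of several genes, the runs being taken with these data in view: 1-8 and 34-39, 9-16 and 40-48, 17-24 and 49-58, 25-32 and 59-65, 66-75, 76-85, 86-90, and 91-100. The labels do not say what a run is, so runs are stretches of numbers and not groups of the study, and they were given no test. Within the 7 runs of 6 or more libraries rho with Clps ran from 0.817 to 0.988 for Reg1 and from 0.717 to 0.991 for Reg3d. It ran from -0.103 to 0.782 for Reg2, from -0.224 to 0.862 for Reg3a, from -0.0167 to 0.835 for Reg3b and from -0.3 to 0.873 for Reg3g. The lowest values belonged to the run 66-75 for Reg3a's relatives Reg3b and Reg3g and to the run 91-100 for Reg2 and Reg3a. Reg1 and Reg3d therefore followed Clps in each of these 7 runs, and each of the other 4 members had at least 1 run with a negative rho.

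**Figure D3:**
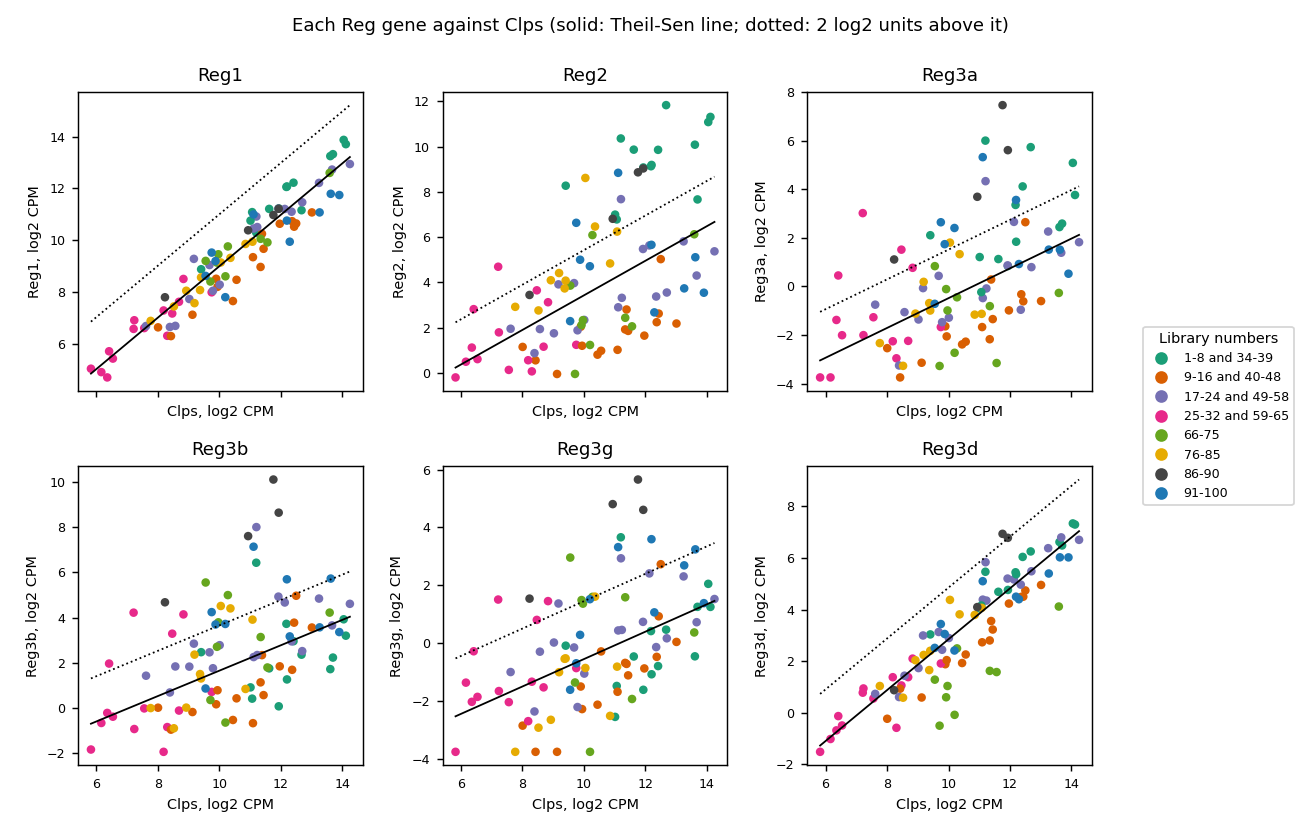
Level of each Reg gene (y axis) against Clps (x axis), both as log2 CPM with a prior count of 2, 1 point for each of 95 libraries coloured by run of library numbers, with the Theil-Sen line (solid) and 2 log2 units above it (dotted). No library lies above the dotted line for Reg1, 2 do for Reg3d, and 17 to 24 do for the other 4 genes.

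To separate exocrine carry-over from levels beyond it, a robust Theil-Sen line of each gene on Clps was drawn. The excess of a library was its distance from that line in log2 units. The lines had slopes of 0.99 for Reg1 and Reg3d, 0.76 for Reg2, 0.61 for Reg3a, 0.56 for Reg3b and 0.47 for Reg3g. In the 18 acinar genes they ran from 0.94 to 1.04. An excess is thus a distance from the gene's own line, which differs from the edgeR slope, and not from proportion to Clps. An excess above 2, a level more than 4-fold over the line, was found in 0 libraries for Reg1, 2 for Reg3d, 17 for Reg3g, 20 for Reg3a, 21 for Reg3b and 24 for Reg2. On the authors' variance-stabilised values the counts were 3 for Reg3g, 7 for Reg3a, 10 for Reg3b and 1 for Reg3d. With each run centred on its median they were 8 for Reg3g, 13 for Reg3a, 13 for Reg3b, 10 for Reg2 and 0 for Reg3d. Of all kept genes 17.4% had such an excess in at least 1 library, and 1.95% had it in 17 or more. In 17 of 18 acinar genes no library reached it, and in Spink1, a trypsin inhibitor gene, library 90 did. The interquartile range of the excess was 0.975 for Reg1 and 1.02 for Reg3d. It was 3.74 for Reg2, 2.77 for Reg3b, 2.72 for Reg3a and 2.46 for Reg3g, and lay between 0.286 and 0.762 in the acinar genes. Reg1 and Reg3d were thus more scattered around Clps than any of the 18 acinar genes on this measure, and the other 4 members far more so.

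**Figure D4:**
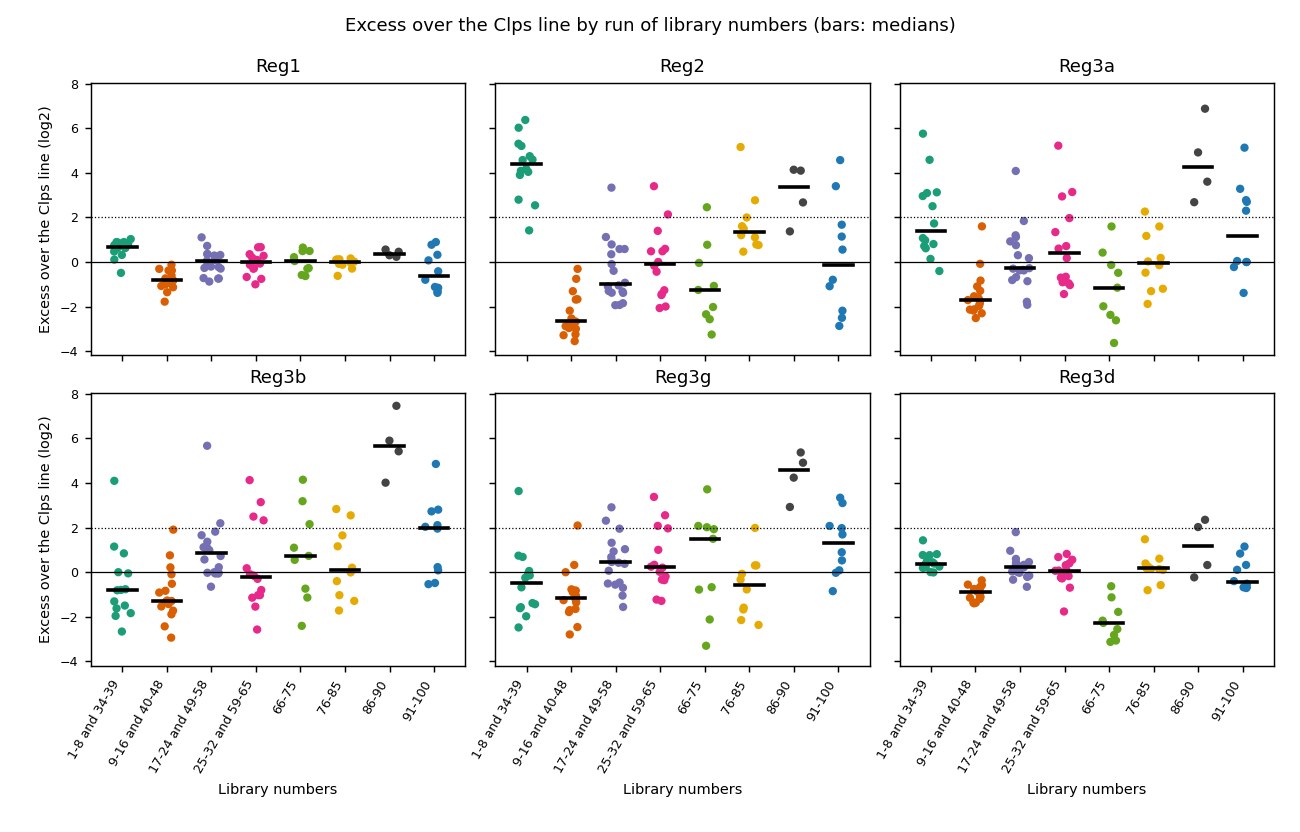
Excess of each Reg gene over its line on Clps, in log2 units (y axis), by run of library numbers (x axis), 1 point for each of 95 libraries, with bars at the run medians and a dotted line at 2. Reg2 is above the dotted line in 13 of 14 libraries of the run 1-8 and 34-39, and Reg3a, Reg3b and Reg3g are above it in all 4 libraries of the run 86-90.

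Reg2 differed widely by run of numbers. In the 14 libraries numbered 1-8 and 34-39 its level ran from 110 to 3658 CPM, with a median of 757 CPM. In the 16 libraries numbered 9-16 and 40-48 it ran from 0.891 to 32.6 CPM, with a median of 3.30 CPM. Clps ran from 678 to 17741 CPM and from 257 to 8250 CPM in the same 2 sets of libraries. The runs were taken with these data in view, and other genes differed between them too. Vil1, for one, was at 61.9 to 134 CPM in the first and 14.5 to 27.5 CPM in the second. How many of all genes differed as far was not counted. Per 100 units of Clps the medians were 13.4 and 0.135, and they were 0.551 in the run 17-24 and 49-58, 1.71 in 25-32 and 59-65, 0.439 in 66-75, 3.48 in 76-85, 9.60 in 86-90 and 0.859 in 91-100. The highest excesses were 6.37 in library 6 and 6.02 in library 5, which put Reg2 at 82.5-fold and 64.8-fold over its line. Of 24 libraries above an excess of 2, 13 belonged to the run 1-8 and 34-39. The one library of that run below it was 38, with 203 CPM and an excess of 1.42. Outside it the highest excess was 5.16, in library 79, where Reg2 was at 393 CPM. Of 19 libraries in which Reg2 lay more than 2 log2 units below its line, 11 were of the run 9-16 and 40-48.

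Reg1 differed the same way between these runs, by much less. Per 100 units of Clps its median was 77.4 in the run 1-8 and 34-39 and 28.6 in the run 9-16 and 40-48, and the other 6 runs lay between 32.6 and 64.7. All 16 libraries of the run 9-16 and 40-48 lay below the Reg1 line, at -1.78 to -0.12 log2 units from it. What a run stands for was not tested, because the labels carry no strain, sex or date for a library.

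Reg3d was lowest for its Clps level in another run. In the 9 libraries numbered 66-75 Reg3d ran from 0.634 to 17.3 CPM, at a median of 0.140 per 100 units of Clps, against medians of 0.377 to 1.84 in the other 7 runs. Libraries 66, 67, 68, 69, 70 and 72 lay at -3.12 to -2.17 log2 units from the Reg3d line, and no library of another run lay more than 2 below it. Ctrl, which lies on another chromosome from the Reg cluster, was low in the same 9 libraries, as given above. Reg1 in these 9 libraries was at a median of 50.4 per 100 units of Clps, within the range of the other runs. Vil1 and the other intestinal markers also had a low sum in these libraries, at 3.59 to 6.11 CPM against a median of 94.8 CPM over all. Most of that sum was Vil1, at 2.76 to 4.98 CPM there. In the run 9-16 and 40-48 the markers also had a low sum, at a median of 24.1 CPM. Reg3d there was at a median of 0.377 per 100 units of Clps. The part of these markers in the Reg3d level was not tested.

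The 3 genes Reg3a, Reg3b and Reg3g were high for their Clps level in many of the same libraries. The excess was above 2 for all 3 genes in 10 libraries, numbered 5, 18, 32, 64, 86, 88, 89, 90, 91 and 98. Reg3b and Reg3g shared 14 libraries, 66.7% of those of Reg3b and 82.4% of those of Reg3g. Reg3a and Reg3b shared 14 as well, 70.0% and 66.7% of the respective lists. Reg2 and Reg3a shared 15, 62.5% of the Reg2 libraries and 75.0% of the Reg3a libraries. No such overlap is given for other genes, so these shares have no background to be read against.

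The highest of these libraries were in the short run 86-90. Reg3b was at 25.5 CPM in library 86, 399 CPM in library 88, 1100 CPM in library 89 and 194 CPM in library 90. All 4 were above the 5.02 CPM of the median library, with excesses of 4.01, 5.90, 7.46 and 5.42, so that Reg3b in library 89 was 176-fold over its line. Reg3g was at 2.84, 24.3, 50.3 and 27.9 CPM in the same libraries, and Reg3a at 2.08, 48.8, 177 and 12.8 CPM. Reg2 was at 10.8, 526, 467 and 112 CPM, above an excess of 2 in 3 of them. Reg3d was above it in libraries 88 and 89, at 110 and 122 CPM. Reg1 was at 224, 2379, 2015 and 1341 CPM, with excesses of only 0.23 to 0.56, and Clps was at 300, 3901, 3462 and 1958 CPM. The low Reg values of library 86 thus came with a low Clps level, and its excess of Reg3b was still 4.01.

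Libraries of other runs showed the same 3 genes high. Library 18 had Reg3b at 256 CPM, Reg3a at 20.1 CPM and Reg3g at 7.57 CPM. Library 98 had Reg3b at 141 CPM, Reg3a at 40.0 CPM and Reg3g at 9.92 CPM. Library 5 had Reg3b at 86.0 CPM, Reg3a at 64.1 CPM and Reg3g at 12.6 CPM, with Reg2 at 1317 CPM. All 3 libraries had Clps between 2213 and 2358 CPM, which differed little between them. Library 64 had little exocrine transcript, with Clps at 148 CPM, and yet Reg3b at 18.6 CPM, an excess of 4.13. Library 74 had Reg3b at 46.9 CPM and Reg3g at 7.71 CPM, excesses of 4.15 and 3.72, with Reg3a at 1.71 CPM and no excess above 2. The high libraries were thus spread over several runs, and only the run 86-90 had all of its libraries above an excess of 2 in all 3 genes.

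The acute-phase gene Lcn2 and markers of leukocytes varied in these libraries. Lcn2, which encodes the iron-binding lipocalin-2, was at 9.99 CPM in library 86, 5.53 in library 88, 19.5 in library 89 and 70.3 in library 90, and its median over 95 libraries was 0.244 CPM. In libraries 5, 18, 32 and 64 it was at 0.0985, 0.122, 0.302 and 0.146 CPM, below or near that median, with Reg3b as high as 256 CPM. In libraries 91 and 98 it was at 2.66 and 3.33 CPM, above the median. Lcn2 was also high in libraries outside this set. It was at 10.7 CPM in library 24, where Reg3b was at 4.71 CPM with an excess of -0.02. In libraries 97 and 100 Lcn2 was at 6.58 and 8.55 CPM. The summed level of 8 macrophage genes was 78.9 CPM in library 88 and 96.6 CPM in library 89, near its median of 75.7 CPM, and 296 CPM in library 90. It was 90.8 CPM in library 86, 453 CPM in library 91 and 783 CPM in library 98. The sum of 10 lymphocyte genes was 39.0, 12.7, 5.35 and 9.55 CPM in libraries 86, 88, 89 and 90, with a median of 10.5 CPM over all, and 190 and 354 CPM in libraries 91 and 98. In libraries 97, 99 and 100, with the highest leukocyte sums, Reg3b was at 18.9, 12.9 and 13.1 CPM, with Clps at 860, 939 and 1170 CPM and Reg3b excesses of 2.73, 2.11 and 1.96. The sum of the intestinal markers was 103, 116 and 118 CPM in libraries 88, 89 and 90, and Muc2 was at 0 CPM in library 89. The summed duct genes were at 1353 CPM in library 90 and Spp1, which encodes osteopontin and marks ducts, at 906 CPM, its highest level in the set. In the 4 libraries of the run 86-90 the delta cell genes summed to 594 to 967 CPM, lower than in any other library, with a median of 2704 CPM over all. The alpha cell genes summed to 2518 to 9932 CPM there (median over all 12967). The mesenchymal genes summed to 135 to 485 CPM there (median 89.7) and the injury genes to 1117 to 2786 CPM (median 711). Higher sums occurred in other runs, up to 505 CPM for mesenchymal genes in library 97 and 3561 CPM for injury genes in library 54. The sums were not set against Clps, and the injury gene Tff2 had a slope of 1.00 on Clps. The part of these cell types in the Reg levels was not tested.

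In the main fit over all 95 libraries, with Clps in the model, only Reg3g rose past the threshold with leukocyte transcripts. Other settings, given below, changed which members passed. The immune index was the mean log2 CPM of 18 macrophage and lymphocyte genes. Reg3g had a slope on it of 0.56 ± 0.167 (SE, n = 95 libraries, edgeR adjusted p = 0.00269), and 1 of 6 members was past the threshold with a positive slope, against 29.4% of 15747 genes. Another 30.2% of genes passed with a negative slope, so this index went with a large part of the transcriptome, and the members' count lies below the background. Slopes were 0.41 ± 0.198 for Reg3b (edgeR adjusted p = 0.0656) and 0.31 ± 0.169 for Reg3a (0.112). Those of Reg1, Reg3d and Reg2 were 0.01, 0.00 and -0.03, and their 95% intervals were -0.07 to 0.09, -0.12 to 0.12 and -0.32 to 0.27. The libraries numbered above 90 weighed on these values: without them the slope was 1.63 for Reg3b (edgeR adjusted p = 0.000584), 1.38 for Reg3a (0.0242) and 1.66 for Reg3g (2.23e-06). Among libraries numbered above 50 alone the slope of Reg3g was 0.16 (adjusted p = 0.524), and with the runs as a factor it was 0.49 (0.0517).

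The acute-phase index, the mean log2 CPM of Lcn2, Socs3, Steap4, Lrg1 and Il1rn, went with a larger part of the family. It also went with leukocyte transcripts. With Clps in the model, 8 of 8 macrophage genes and 10 of 10 lymphocyte genes rose with it, at median slopes of 0.88 and 1.72. Of its own 5 genes, 4 rose with the immune index. The indices were not fitted together, so a relation to acute-phase genes cannot be told apart from one to leukocytes. With Clps in the model, Reg3b had a slope of 1.29 ± 0.179 (edgeR adjusted p = 1.06e-09), Reg3g of 1.05 ± 0.156 (9.31e-09) and Reg3a of 0.90 ± 0.197 (5.39e-05). Reg3d rose less, with 0.23 ± 0.0868 (edgeR adjusted p = 0.0203), and 4 of 6 members were past the threshold with a positive slope, against 28.0% of 15760 genes. No member passed with a negative slope, against 28.8% of genes. Reg1 had a slope of 0.04 (95% interval -0.08 to 0.16) and Reg2 of -0.02 (-0.48 to 0.45). The relation of Reg3a and Reg3d rested in part on the run 86-90: without its 4 libraries the slopes were 0.47 (adjusted p = 0.0806) and 0.06 (0.601). Those of Reg3b and Reg3g were 0.65 (edgeR adjusted p = 0.0112) and 0.63 (0.00757) without them. With the runs as a factor the slope of Reg3b was 1.20 (edgeR adjusted p = 0.0351), and those of Reg3g and Reg3a were 0.68 (adjusted p = 0.133) and 0.83 (0.156). Among libraries numbered 50 or lower no member passed, and the slope of Reg3b there was 1.19 (adjusted p = 0.539).

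**Figure D5:**
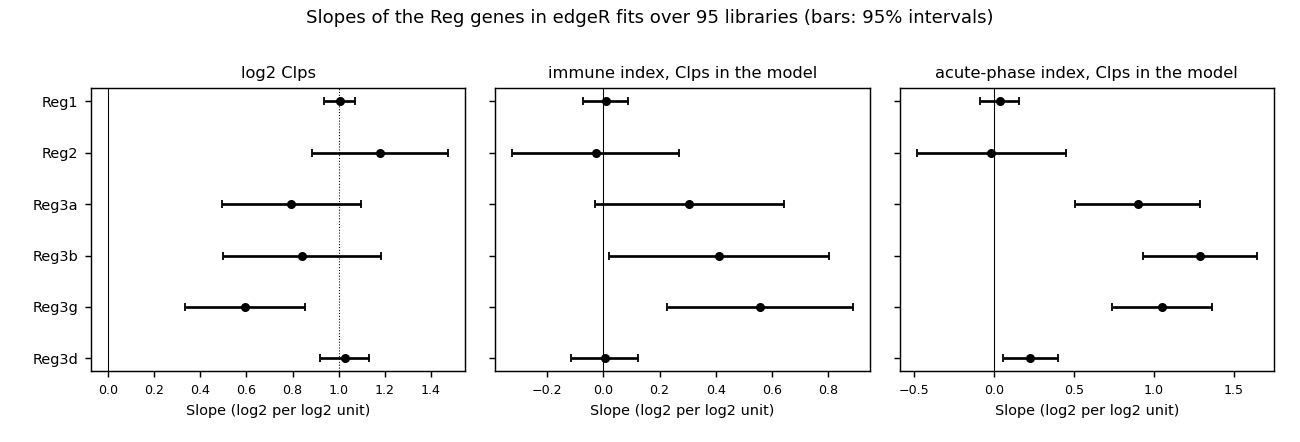
Slopes of the 6 Reg genes (rows) in edgeR fits over 95 libraries, with 95% intervals as bars, on log2 CPM of Clps, on the immune index with Clps in the model, and on the acute-phase index with Clps in the model (x axes, log2 units per log2 unit; solid line at 0, dotted line at 1 in the Clps panel). Reg1 and Reg3d sit at 1 on Clps with narrow bars, and Reg3b, Reg3g and Reg3a have acute-phase slopes of 0.90 to 1.29.

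Receptors and signalling genes tied to the Reg family were read in the same fits. Of 21 such genes listed, 17 were in the table and 16 were tested, and Reg4 and the Saa genes were not analysed here. On Clps 3 of 16 rose and 0 fell, near the 14.7% of all genes that rose. Il22ra1, which encodes the interleukin-22 receptor chain, had a slope of 1.10 ± 0.0359 (edgeR adjusted p = 1.87e-48), much like that of Reg1. Extl3 had a slope of 0.16 ± 0.0118 (edgeR adjusted p = 7.52e-22) and Il17ra, the interleukin-17 receptor, one of 0.11 (0.00919), and Extl3 stayed between 36.0 and 180 CPM in all libraries. With the acute-phase index 6 of 11 rose and 1 fell, beside 28.0% and 28.8% of all genes. Cxcl10, an interferon-induced chemokine, had the highest slope, 1.58 ± 0.114 (edgeR adjusted p = 4.77e-23). Stat3 rose by 0.22 ± 0.0364 per unit (edgeR adjusted p = 2.04e-07), and Il6ra, the interleukin-6 receptor chain, had a slope of -0.23 (7.19e-08). With the immune index 10 of 16 rose and 1, Il6ra, fell, beside 29.4% and 30.2% of all genes.

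Genes that mark injured or reprogrammed acinar tissue were counted beside them. Of 11 listed, 7 rose with Clps, with a median slope of 0.28, and the highest was 1.00 ± 0.0163 for Tff2, a secreted trefoil peptide (edgeR adjusted p = 3.11e-75). With the acute-phase index 8 of 11 rose, with a median slope of 0.29, among them Spp1 at 0.57 ± 0.0908 (edgeR adjusted p = 7.83e-08) and Clu, which encodes clusterin, at 0.42 (1.21e-18). With the immune index 6 rose and 1, Tff2, fell. Of all genes, 14.7% rose with Clps, 28.0% with the acute-phase index and 29.4% with the immune index. Over all genes the median slopes were -0.00442 on Clps, -0.00879 on the acute-phase index and -0.00375 on the immune index.

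Among themselves the members formed close pairs. Reg1 and Reg3d had a rho of 0.921 in log2 CPM, Reg3b and Reg3g 0.891, Reg2 and Reg3a 0.874, and Reg3a and Reg3b 0.794. The lowest was Reg1 with Reg3g, at 0.540. All 15 pairs had a permutation p of 1e-05, the smallest 100000 resamples can give, and adjusted p of 0.000911 or lower over all genes. The share of all genes that passed with a positive rho was 16.1% for Reg1, 16.7% for Reg2, 11.8% for Reg3a, 11.1% for Reg3b, 9.43% for Reg3g and 14.5% for Reg3d. Pearson's r for the first 4 pairs was 0.922, 0.905, 0.851 and 0.800, and leaving out the 2 most distant libraries gave 0.917, 0.888, 0.840 and 0.768. Since all members rise with Clps, the pairs were read again in their excesses, as a description. There Reg3b and Reg3g stood at a rho of 0.829, Reg2 and Reg3a at 0.808, and Reg2 and Reg3d at 0.755. Reg3a and Reg3d followed at 0.736, Reg1 and Reg2 at 0.716, and Reg1 and Reg3d at 0.664. Reg1 and Reg3g had the lowest, 0.227. Within the 7 larger runs the rho of the excesses of Reg3b and Reg3g ran from 0.559 to 0.9 and that of Reg2 and Reg3a from 0.441 to 0.915. That of Reg1 and Reg2 ran from -0.679 to 0.833, and after centring each run on its median it was 0.348 against 0.793 for Reg2 and Reg3a. Centred in the same way, Reg3a and Reg3b stood at 0.811, Reg2 and Reg3b at 0.760 and Reg3b and Reg3g at 0.745. Reg3b and Reg3g were then no longer the closest pair.

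Outside the family the closest genes differed by member, as a description over 95 libraries that share depth and exocrine content. Those of Reg1 were Klk1, a kallikrein of exocrine glands (rho 0.954), Homer2 (0.949), the amylase gene Amy2a5 (0.942), Clps and the elastase gene Cela2a (0.939). Reg3d was closest to Amy2a5 (0.928) and Amy2a2 (0.923). Reg2 was closest to Reg3a, followed by Itih4, an acute-phase protein gene (0.796), and Dnajc22 (0.780). Reg3b and Reg3g were each closest to the other, then to Reg3a, and then to Hkdc1, a hexokinase family gene, at 0.777 and 0.724. In the excess over Clps, Reg3g was followed after Reg3b and Reg3a by Ighv1-34 (0.611) and Jchain (0.600), an immunoglobulin heavy chain segment and the antibody joining chain. Reg2 in excess was close to Hpgds, a prostaglandin D synthase gene (0.754).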

How the data were processed

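Messenger RNA of islets was measured in 95 poly(A) libraries with spiked ERCC controls, per the labels' protocols. The authors deposited estimated counts per gene with no normalization: 67.7% of cells were whole to within 1e-06, so they were rounded. They also deposited variance-stabilised values, read as log2, and a table of gene positions in megabases (other). GRCm38 and DESeq2 come from the submitters' processing notes. The aligner, counter, strand setting and annotation are not given in the sources used here.

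Members and lists were chosen with earlier results of these data known. All libraries were unassigned to groups, since no label gives one. CPM used TMM library sizes in edgeR 4.0.16 (R 4.3.3), log2 CPM a prior count of 2, and the filter on low counts stands in the text. The quasi-likelihood test was fitted to all kept genes for Clps, and for the immune and acute-phase indices with Clps in the model. P-values were adjusted by Benjamini-Hochberg over all kept genes outside the covariate. Rank correlations used 100000 permutations. No member's levels fell into separate clusters (a gap above 20% of the range, 6 or more libraries either side). On simulated counts for the Clps fit, over 15766 genes, 100 of 100 genes with a slope of 0.3 and 100 of 100 with a slope of 1 were recovered, and 11 of 15566 unchanged genes were called. The simulated counts had the same dispersion for every gene and no likeness between libraries of a run. They therefore do not measure the rate of false calls in the real libraries. Exon lengths came from GENCODE M21. Named genes are the members, Clps, the highest and lowest slopes of each list and the 5 closest genes of each member. Ctrl, Spink1, Stat3, Spp1, Clu and the libraries singled out beyond the extremes were chosen after their values were seen. The alternatives were DESeq2 1.42.0 and its size factors, no filter, a prior count of 0.5, the variance-stabilised values, the acinar list in place of Clps, number windows of 10 as a factor, subsets of library numbers, other lines and thresholds, and, added after seeing the data, the runs as a factor and leaving out libraries 86 to 90. The values of 1 listed gene are not reported here.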

Additional observations from a re-analysis of the deposited data

How the results depend on the processing

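All 6 slopes on Clps and all 6 rank correlations with Clps kept direction and side of the threshold under every alternative run; only the number of genes past the threshold moved, to 2308 among libraries numbered above 50. The slopes ran from 0.91 to 1.08 for Reg1, 0.61 to 1.07 for Reg3d, 0.60 to 1.31 for Reg2, 0.29 to 1.00 for Reg3b, 0.23 to 0.83 for Reg3a and 0.15 to 0.72 for Reg3g. The lowest slopes of Reg3d, Reg3b, Reg3a and Reg3g came from the variance-stabilised values, a scale unlike that of the other fits. In the fits of counts their lowest slopes were 0.95, 0.50, 0.50 and 0.45. Where calls or directions changed elsewhere, the cause was not tested.

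Immune slopes changed most. With windows of 10 numbers as a factor Reg2 was at 0.36 and Reg3d at -0.0102, and 5609 genes passed. In libraries numbered 90 or lower Reg3a was at 1.38, Reg3b at 1.63 and Reg3d at -0.0218, with 3809 genes. At 50 or lower Reg1 was at -0.11, Reg3b at 4.94 (past the threshold) and Reg3g at 3.43 (not past it), with 146 genes. Above 50 Reg2 was at 0.0627, Reg3g at 0.16 and Reg3d at -0.0201. With the acinar list in place of Clps Reg1 was at -0.0217 and Reg3d at -0.0208. With runs as a factor Reg2 was at 0.39, Reg3a at 0.67 (past it) and Reg3g at 0.49, with 6241 genes. Without libraries 86 to 90 Reg3a was at 0.30 and Reg3b at 0.29, both past it, and Reg3d at -0.000621.

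Acute-phase slopes for Reg2 were 0.60 with windows, 0.0589 at 90 or lower, 0.49 above 50 and 1.04 with runs, none past the threshold. Reg3d was not past it at 90 or lower (0.34), with the acinar list (0.20), with runs (0.31) and without 86 to 90 (0.0623), and was at -0.0289 at 50 or lower. Reg1 was at -0.14 at 50 or lower, at -0.00522 with the acinar list and at 0.25, past the threshold, with runs. At 50 or lower Reg3a was at 0.40, Reg3b at 1.19 and Reg3g at 0.10, none past it. With runs Reg3a was at 0.83 and Reg3g at 0.68, and without 86 to 90 Reg3a was at 0.47. Genes past it numbered 3342 at 90 or lower, 132 at 50 or lower and 5050 with runs.

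Libraries above the excess threshold at 1 log2 unit numbered 2 for Reg1, 31 for Reg3a, 32 for Reg3b, 27 for Reg3g and 6 for Reg3d. At 3 log2 units they numbered 12 for Reg3a, 11 for Reg3b, 8 for Reg3g and 0 for Reg3d. With excesses centred on runs they numbered 10 for Reg2, 13 for Reg3a, 13 for Reg3b, 8 for Reg3g and 0 for Reg3d, and on variance-stabilised values 7 for Reg3a, 10 for Reg3b, 3 for Reg3g and 1 for Reg3d. Reg3a and Reg3g rest on few counts in most libraries, which limits their folds. No paired analysis was possible because the labels give no groups.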
